A study of Mus musculus with 10 samples.

Results

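Calcineurin is the calcium- and calmodulin-dependent phosphatase that cyclosporin A inhibits, and the mRNA of its subunits, of the NFAT transcription factors it activates and of 2 of its regulators was followed here in mouse lungs with increased pulmonary flow (IPF). The genes were chosen by name, as the drug target of a treatment arm in the study. All 10 were found once each among the 54532 genes of the FPKM table (fragments scaled to the length of the gene and the size of the library), and all 10 passed the filter on low values, a mean of at least 0.1 FPKM over all samples, with 20448 genes in all. They are the catalytic subunits Ppp3ca, Ppp3cb and Ppp3cc, the regulatory subunit Ppp3r1, the factors Nfatc1, Nfatc2, Nfatc3 and Nfatc4, and the regulators of calcineurin Rcan1 and Rcan2.

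Whole lungs of wild-type C57BL/6J mice were sequenced at P30. The IPF group (n = 5) had received a fistula between the abdominal aorta and the inferior vena cava at P7, which returns arterial blood to the right heart and raises flow through the lungs. The sham group (n = 5) had the same operation without the puncture. None of these lungs had been exposed to cyclosporin A, which was given to mice of another cohort, so the values describe the drug's target and not its effect. Each sample is a lung of its own by its label, and the p-values measure the spread between these lungs.

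Several features of the libraries bear on every value below. Reads on genes ranged from 15483046 to 19026843 per sample. Xist, the RNA of the inactive X chromosome, was at 26.8 to 43.2 FPKM in IPF and at most 0.0767 FPKM in sham lungs, and the Y-linked Ddx3y had no read in IPF lungs and 14.3 to 21.4 FPKM in sham lungs. Of 15 circadian clock genes, 14 had an adjusted p under 0.05 (limma). Surgery, sex and clock phase therefore cannot be told apart in any comparison of the groups. Genes of alveolar type 1 cells (6 genes, summed level 1236 to 1637 FPKM) and type 2 cells (6 genes, 12396 to 19835 FPKM) were abundant in all 10 samples, which are labelled lung.

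In resting cells NFAT proteins are phosphorylated and stay in the cytoplasm. A rise in calcium activates calcineurin, which removes the phosphates, and NFAT enters the nucleus and works with partners such as AP-1. Cyclosporin A first binds cyclophilin A, and the complex blocks calcineurin, which is why the drug silences cytokine genes of T cells. The same pathway acts in endothelial cells, smooth muscle, heart and bone. Calcineurin is controlled by its phosphatase activity and NFAT by its location, and neither is visible in mRNA. Rcan1 is an exception of use here, since it binds and restrains calcineurin and its short transcript is itself an NFAT target.

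Rcan1 lies on the minus strand of chromosome 16 (GRCm38, 92391953 to 92470867), and RefSeq (GRCm38.p6) gives it 2 starts that are 66091 bases apart. The 250 bases upstream of each are shown because the upstream and the internal start belong to transcripts with different control, while the gene-level FPKM adds them together. Capitals mark matches on either strand to the NFAT core GGAAA, the E-box CACGTG and the cyclic AMP response element TGACGTCA, none of which overlap each other.
Rcan1 upstream start, chr16:92466170-92466419, minus strand: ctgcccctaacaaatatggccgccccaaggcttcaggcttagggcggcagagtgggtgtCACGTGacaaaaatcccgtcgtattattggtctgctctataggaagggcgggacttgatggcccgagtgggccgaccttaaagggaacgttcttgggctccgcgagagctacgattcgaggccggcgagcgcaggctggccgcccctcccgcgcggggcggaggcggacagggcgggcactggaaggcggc
Rcan1 internal start, chr16:92400079-92400328, minus strand: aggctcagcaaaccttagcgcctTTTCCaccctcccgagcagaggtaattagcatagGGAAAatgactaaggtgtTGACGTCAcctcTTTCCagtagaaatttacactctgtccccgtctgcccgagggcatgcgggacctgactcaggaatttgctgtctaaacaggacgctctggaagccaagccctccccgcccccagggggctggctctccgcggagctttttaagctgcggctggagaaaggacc
The internal window held 3 NFAT cores, which begin 227, 193 and 163 bases upstream of the start, and 1 cyclic AMP response element at 175 bases. The upstream window held no NFAT core and 1 E-box at 191 bases. Among 32851 RefSeq windows of the same length, 55.6% held at least 1 NFAT core and 6.39% at least 3, 6.02% an E-box and 1.55% the cyclic AMP response element. A match of letters is a description and not a binding site. RefSeq windows were at hand for 7 of the 10 genes, 12 windows in all, and 1 window each of Nfatc2, Ppp3cb and Nfatc4 also held 3 NFAT cores.

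Mean levels per gene length put Ppp3r1, Ppp3ca and Ppp3cb above the 4 NFAT factors, and Ppp3cc below all of them but Nfatc2. Over all 10 samples, Ppp3r1 averaged 35.9 FPKM, Ppp3ca 22.6, Rcan1 20.7, Ppp3cb 9.44, Nfatc1 8.56, Nfatc3 8.37, Rcan2 6.90, Nfatc4 5.12, Ppp3cc 4.18 and Nfatc2 0.850. Ppp3r1 lay above the 93rd percentile of all genes tested by its level (93.4), and Nfatc2 was at percentile 32.2. Some neighbours in this order changed places between samples: Ppp3ca was above Rcan1, and Nfatc1 above Nfatc3, in 6 of 10 samples each. Likewise Ppp3cb was above Nfatc1, and Nfatc4 above Ppp3cc, in 8 of 10 samples each. Ppp3r1 was above Ppp3ca, Rcan1 above Ppp3cb, and Ppp3cc above Nfatc2 in all 10.

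**Figure D1:**
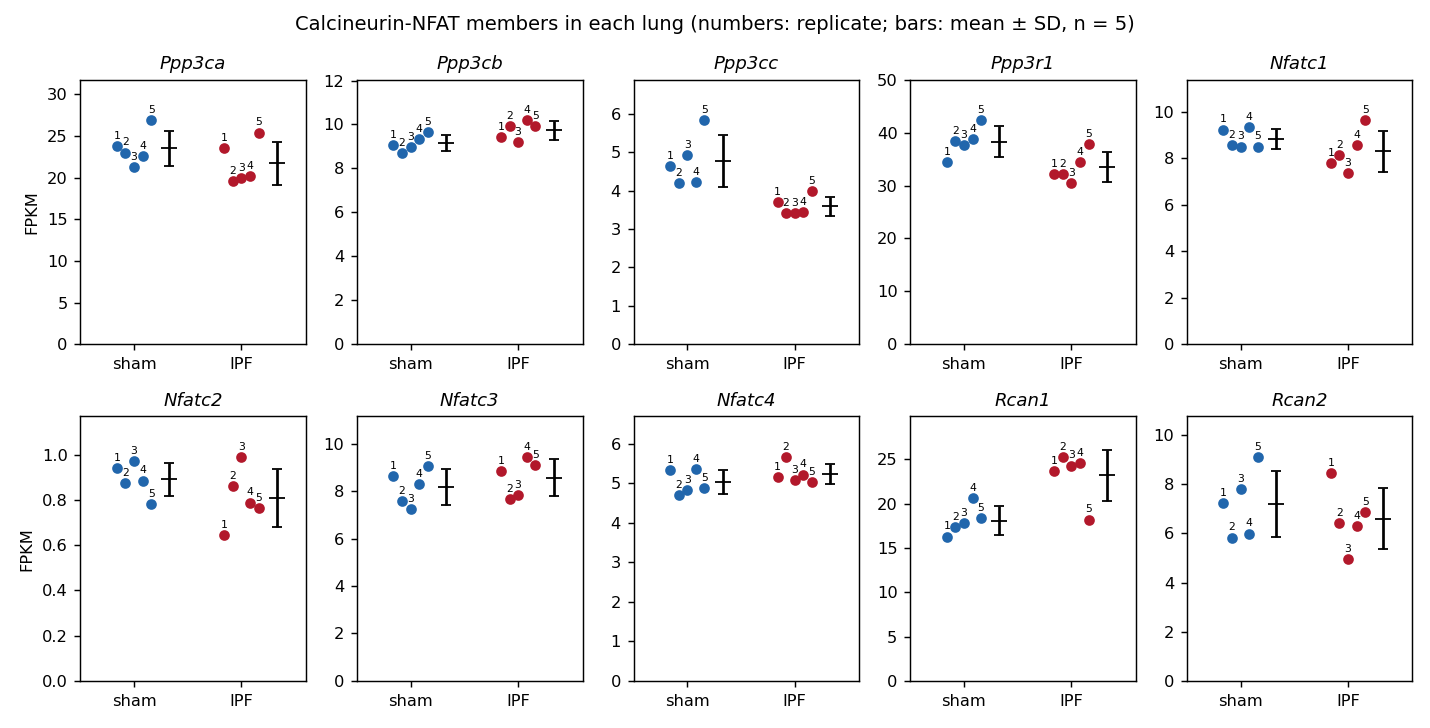
FPKM of each gene (y axis, from 0, own scale per panel) in the 5 sham (blue) and 5 IPF (red) lungs, with the replicate number above each point and the mean ± SD (n = 5) in black. The groups are apart only for Ppp3cc, and 4 of 5 IPF lungs are above all sham lungs for Rcan1.

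Of the 10 genes, 1 had an adjusted p under 0.05 (limma on log2(FPKM + 0.1), Benjamini-Hochberg over all 20448 genes), Ppp3cc, which was lower in IPF. Over all genes tested 5.85% passed this limit and 2.14% passed it as lower and 3.71% as higher, so 1 of 10 is near the background. None of the 10 also had an absolute log2 fold change above 1, the second limit of the study, which 1.14% of all genes passed. The unadjusted p was under 0.05 for 3 of the 10 genes, Ppp3cc, Rcan1 and Ppp3r1, where 19.5% of all genes reached it. With limma voom on reads recovered from the FPKM values the count was also 1. The log2 fold changes had a median of -0.11, with 4 genes higher and 6 lower, beside a median of 0.0016 for all genes. Their absolute values had a median of 0.12, and all genes with a mean of at least 1 FPKM had 0.13.

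**Figure D2:**
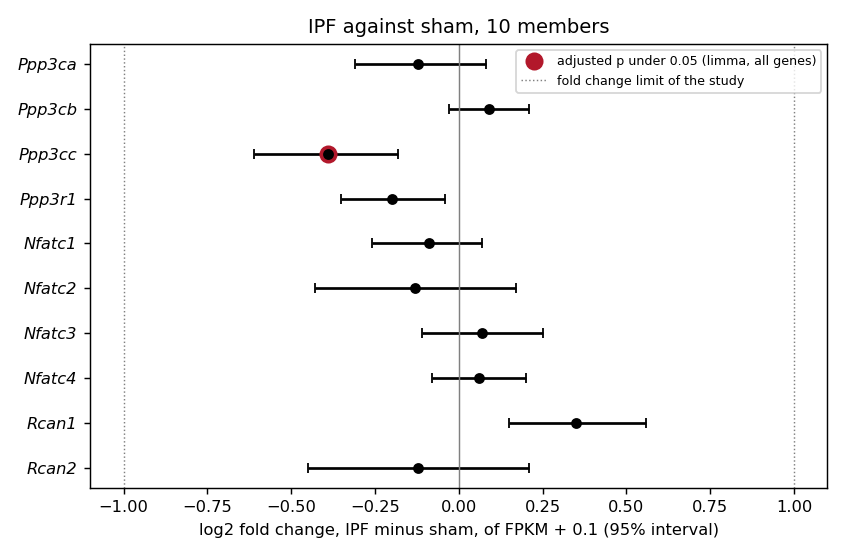
Log2 fold change of FPKM + 0.1, IPF minus sham (x axis), with its 95% limma interval for each gene (y axis). Ppp3cc, ringed in red, has an adjusted p under 0.05, and every interval lies inside the dotted limits at an absolute log2 fold change of 1.

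Ppp3cc encodes the gamma catalytic subunit, the least abundant of the 3 here (ENSMUSG00000022092, chromosome 14 of GRCm38, 70217865 to 70289471, minus strand). It was at 3.70, 3.42, 3.42, 3.44 and 3.98 FPKM in IPF replicates 1 to 5 and at 4.65, 4.20, 4.92, 4.22 and 5.84 FPKM in sham replicates 1 to 5. All 5 IPF lungs were below all sham lungs, and the sham lungs were spread more widely, up to sham replicate 5. Such separation without overlap was seen for 7.29% of all genes tested, with IPF lower for 2.77% and higher for 4.52%. The means were 3.59 ± 0.247 and 4.77 ± 0.672 FPKM (SD, n = 5 each). On the log2 scale Ppp3cc fell by 0.39 (standard error 0.10, 95% interval -0.61 to -0.18), or by 23.8%, and limma gave an adjusted p of 0.0380. The exact permutation test gave a two-sided p of 0.00794, the smallest that 5 against 5 samples allow. Every gene whose groups do not overlap has this value, so it adds nothing to the separation. Permutation p-values here and below are not adjusted over genes. In whole lung, fewer cells that express a gene and less of its RNA per cell cannot be told apart, nor can more cells and more RNA.

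The call of Ppp3cc is close to the limit. When single lungs were removed in turn, limma's adjusted p exceeded 0.05 in 7 of 10 fits, with values from 0.0284 to 0.0919, while the log2 fold change stayed between -0.43 and -0.32. It remained under 0.05 only without IPF replicate 5, sham replicate 2 or sham replicate 4. Each sample held 170 to 266 reads of Ppp3cc, so counting alone gives a coefficient of variation of 7.26% in IPF, about what was observed there (6.88%), and 6.55% in sham, where 14.1% was observed.

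The antisense gene Gm49417 (ENSMUSG00000115186, plus strand, 70205324 to 70255287) shares 37423 bases of the span of Ppp3cc. Whether the counting used strand is not given in the sources used here, and without strand the reads of the pair cannot be told apart. Gm49417 was at 2.07 ± 0.474 FPKM in IPF and 2.95 ± 0.337 FPKM in sham (SD, n = 5 each), with all 5 IPF lungs below all sham lungs, and the log2 difference was -0.52 (adjusted p 0.0736 in limma). Within the groups, the deviations of the pair had a Pearson r of 0.03 over the 10 samples. The part of Gm49417 in the values of Ppp3cc was not tested.

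Ppp3ca and Ppp3cb make up most of the catalytic mRNA. Ppp3ca, the alpha subunit (ENSMUSG00000028161, chromosome 3, 136670124 to 136937727), was at 23.5, 19.6, 19.9, 20.2 and 25.4 FPKM in IPF replicates 1 to 5 and at 23.8, 23.0, 21.3, 22.6 and 26.9 FPKM in sham replicates 1 to 5. IPF replicates 2, 3 and 4 were below all sham lungs and the other two lay among them. Its log2 fold change was -0.12 (95% interval -0.31 to 0.08, limma adjusted p = 0.509), so the interval ran from 19.3% lower to 5.36% higher.
Ppp3cb, the beta subunit (ENSMUSG00000021816, chromosome 14, 20499364 to 20546573), was at 9.41, 9.94, 9.19, 10.2 and 9.93 FPKM in IPF replicates 1 to 5 and at 9.07, 8.70, 8.97, 9.32 and 9.67 FPKM in sham replicates 1 to 5. It was the steadiest of the 10 genes between lungs, with a coefficient of variation of 4.38% in IPF and 4.00% in sham. Its log2 fold change was 0.09 (95% interval -0.03 to 0.21, limma adjusted p = 0.399), and 3 of 5 IPF lungs were above all sham lungs (exact permutation test, two-sided p = 0.0556).

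The catalytic subunits differed in their share of catalytic mRNA, which is a ratio within each lung and needs no scaling between libraries. Ppp3cc made up 10.1% to 10.5% of the summed catalytic FPKM in IPF lungs and 11.7% to 14.0% in sham lungs, without overlap. These shares rest on the same values as the test of Ppp3cc and are given as a description. Ppp3ca held 61.8% ± 2.46 of the sum in IPF and 62.8% ± 1.37 in sham lungs, and Ppp3cb 27.9% ± 2.37 and 24.5% ± 1.19 (SD, n = 5 each). The ratio of Ppp3cb to Ppp3cc was 2.50 to 2.98 in IPF and 1.65 to 2.21 in sham lungs. The catalytic sum itself overlapped, at 32.5 to 39.3 FPKM in IPF and 35.2 to 42.4 FPKM in sham lungs.

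Ppp3r1 encodes calcineurin B, the calcium-binding subunit without which the catalytic subunits are not active (ENSMUSG00000033953, chromosome 11, 17159263 to 17200375). It was at 32.2, 32.2, 30.5, 34.5 and 37.9 FPKM in IPF replicates 1 to 5 and at 34.4, 38.4, 37.7, 38.8 and 42.4 FPKM in sham replicates 1 to 5. IPF replicates 1, 2 and 3 were below all sham lungs, and sham replicates 1 and 3 lay within the IPF range. The log2 fold change was -0.20 (95% interval -0.35 to -0.04), with a limma adjusted p of 0.153 and an exact permutation p of 0.0397 (two-sided). The former passed 0.05 with quantile normalization (0.0423) and missed it in every fit that left out 1 lung, from 0.0522 to 0.281. Relative to the catalytic sum, Ppp3r1 was at a ratio of 0.955 ± 0.0514 in IPF and 1.03 ± 0.0685 in sham lungs (SD, n = 5 each), and the groups overlapped. The span of Wdr92 overlaps that of Ppp3r1 on the same strand. Wdr92 was at 5.36 ± 0.683 FPKM in IPF and 4.72 ± 0.657 FPKM in sham lungs (SD, n = 5 each). Its log2 difference was 0.18 (adjusted p 0.426 in limma). The part of Wdr92 in the values of Ppp3r1 was not tested.

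**Figure D3:**
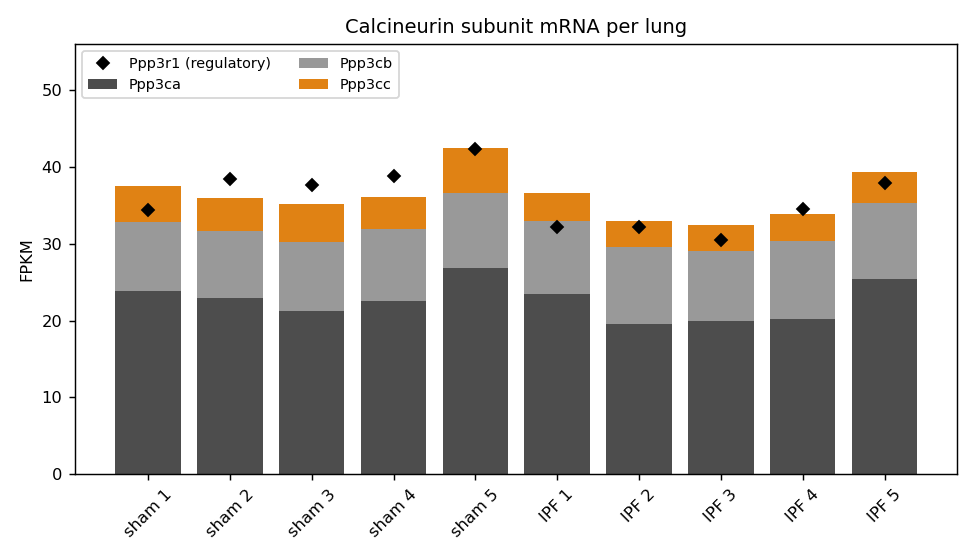
FPKM of the catalytic subunits, stacked per lung from 0, with the regulatory subunit Ppp3r1 as diamonds. The catalytic sum lies between 32.5 and 42.4 FPKM in all lungs, and the Ppp3cc layer is thinner in the 5 IPF lungs.

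The NFAT factors differed between the groups by less than the spread, and none had an adjusted p under 0.05 in limma (5.85% of all genes did). The smallest of these adjusted p-values was 0.545, and with single lungs removed it was 0.211 (Nfatc1). Nfatc1, the factor of heart valves and osteoclasts (ENSMUSG00000033016, chromosome 18, 80606205 to 80713071), was at 7.78, 8.12, 7.35, 8.58 and 9.64 FPKM in IPF and 9.23, 8.58, 8.50, 9.33 and 8.50 FPKM in sham replicates 1 to 5. The IPF lungs held both the lowest and the highest value. Its log2 fold change was -0.09 (95% interval -0.26 to 0.07, limma adjusted p = 0.545).
Nfatc2, a main NFAT factor of T cells (ENSMUSG00000027544, chromosome 2, 168476410 to 168601657), was at 0.644, 0.862, 0.990, 0.788 and 0.764 FPKM in IPF and 0.941, 0.875, 0.972, 0.885 and 0.781 FPKM in sham replicates 1 to 5. It had 116 to 198 reads per lung, and IPF replicates 1 and 3 set its lowest and highest value. The log2 fold change was -0.13 (95% interval -0.43 to 0.17, limma adjusted p = 0.652), the widest interval of the 4 factors.
Nfatc3, which acts in developing T cells and in vascular smooth muscle (ENSMUSG00000031902, chromosome 8, 106058840 to 106130537), was at 8.84, 7.65, 7.83, 9.45 and 9.10 FPKM in IPF and 8.65, 7.58, 7.25, 8.31 and 9.06 FPKM in sham replicates 1 to 5. The ranges overlapped, and the log2 fold change was 0.07 (95% interval -0.11 to 0.25, limma adjusted p = 0.707). Its 3' end meets that of Esrp2 on the other strand, which was at 8.68 ± 1.05 and 7.87 ± 0.645 FPKM (SD, n = 5 each) in IPF and sham lungs.
Nfatc4, known from heart and nerve cells (ENSMUSG00000023411, chromosome 14, 55823144 to 55833943), was at 5.16, 5.67, 5.07, 5.22 and 5.03 FPKM in IPF and 5.33, 4.71, 4.83, 5.36 and 4.88 FPKM in sham replicates 1 to 5. The difference was within the spread, with a log2 fold change of 0.06 (95% interval -0.08 to 0.20, limma adjusted p = 0.673).

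Summed over the 4 factors, NFAT mRNA was at 22.9 ± 1.35 FPKM in IPF and 22.9 ± 1.20 FPKM in sham lungs (SD, n = 5 each). Nfatc1 and Nfatc3 each made up about as much of it, 36.1% ± 1.92 and 37.4% ± 2.11 in IPF against 38.6% ± 1.20 and 35.6% ± 2.05 in sham lungs, and Nfatc2 3.56% ± 0.716 against 3.90% ± 0.422 (SD, n = 5 each). The intervals allow a change of Nfatc1 from 16.5% lower to 5.09% higher, of Nfatc3 from 7.65% lower to 19.1% higher, of Nfatc4 from 5.68% lower to 15.0% higher and of Nfatc2 from 26.0% lower to 12.6% higher.

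Rcan1 had the largest change by size after Ppp3cc, in the other direction (ENSMUSG00000022951, the gene whose starts are shown above). It was at 23.7, 25.3, 24.3, 24.6 and 18.2 FPKM in IPF replicates 1 to 5 and at 16.3, 17.4, 17.8, 20.6 and 18.4 FPKM in sham replicates 1 to 5. IPF replicates 1 to 4 were above all sham lungs, and IPF replicate 5 lay among the sham lungs. The log2 fold change was 0.35 (standard error 0.09, 95% interval 0.15 to 0.56), a difference of 27.8%. The limma adjusted p was 0.0524, just short of the limit, and the exact permutation test gave a two-sided p of 0.0238. With limma voom on the recovered reads the adjusted p was 0.0514.

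Rcan1 lies so close to the limit that single lungs and the set of genes tested move it across. Without IPF replicate 5 its log2 fold change was 0.44 with a limma adjusted p of 0.00316, and without sham replicate 4 it was 0.40 with 0.0438. In the other 8 fits without 1 lung the adjusted p was above 0.05, up to 0.124. With all lungs it was 0.0339 among protein-coding genes alone and 0.0398 among genes with a mean of at least 1 FPKM. IPF replicate 5 also stood apart in the clock: Arntl, the activator of the clock, was at 3.31 FPKM there and at 5.61 to 6.85 FPKM in the other IPF lungs, and Dbp, a clock output factor, at 3.49 FPKM against 1.74 to 2.17 FPKM. For 11 of the 14 clock genes with an adjusted p under 0.05 (limma), it was the IPF lung closest to the sham mean. The same lung had the highest summed level of 8 neutrophil genes, 302 FPKM, where the other IPF lungs had 53.7 to 77.2 FPKM. Within the groups, over 10 samples that share library and lung, the deviations of Rcan1 had a Pearson r of -0.91 with the mean of the 11 clock genes that were lower in IPF and of 0.68 with that of the 3 that were higher. Without IPF replicate 5 these were -0.69 and -0.53, so the sign of the second rests on that lung. With the mean of all 15 clock genes r was -0.93 for Rcan1, 0.69 for Nfatc1 and 0.59 for Ppp3ca. The rest of the 10 genes were at most at 0.32 in size (Ppp3r1). With the neutrophil genes the r of Rcan1 was -0.52. The part of the clock and of the neutrophil genes in the value of Rcan1 was not tested.

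**Figure D4:**
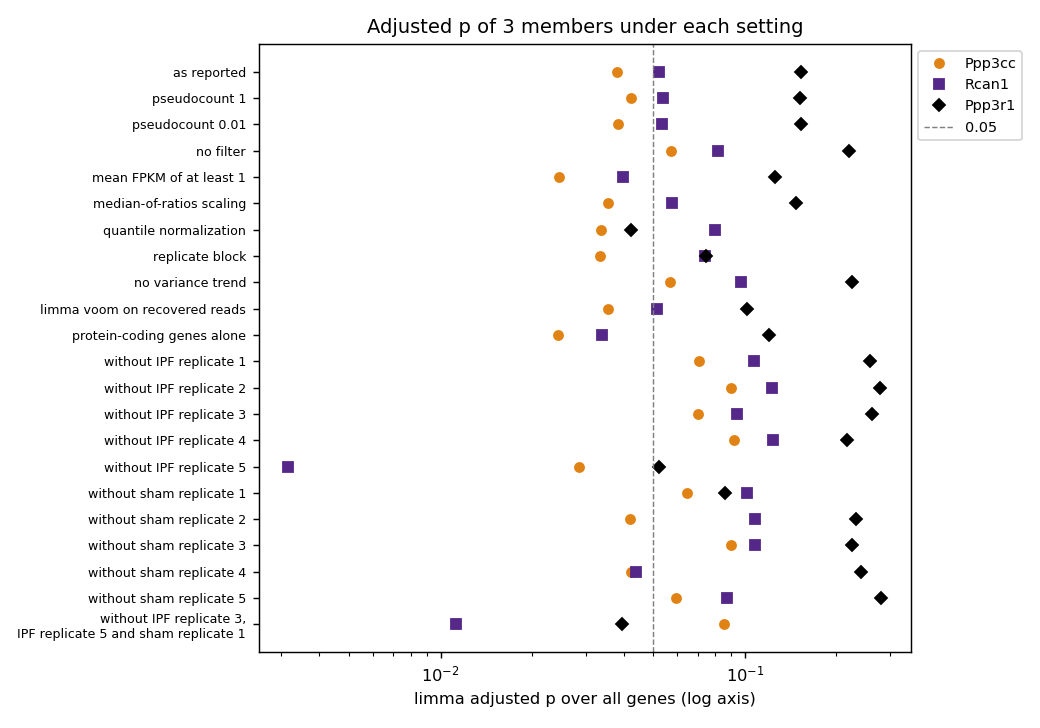
Adjusted p over all genes tested (x axis, log scale, limma) of Ppp3cc, Rcan1 and Ppp3r1 under each setting (y axis), with the limit of 0.05 dashed. Ppp3cc moves across the limit between 0.0244 and 0.0919, and Rcan1 reaches 0.00316 without IPF replicate 5.

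Rcan2, the relative of Rcan1 that is known as thyroid hormone responsive (ENSMUSG00000039601, chromosome 17, 43801351 to 44039516), was at 8.47, 6.41, 4.97, 6.31 and 6.88 FPKM in IPF and 7.24, 5.83, 7.81, 5.99 and 9.12 FPKM in sham replicates 1 to 5. It was the least steady of the 10 genes, with a coefficient of variation of 19.0% in IPF and 18.9% in sham lungs, and its ranges overlapped. The log2 fold change was -0.12 (95% interval -0.45 to 0.21, limma adjusted p = 0.714). With single lungs removed it moved between -0.22 and -0.03 (limma adjusted p from 0.477 to 0.948). The ratio of Rcan1 to Rcan2 was 3.64 ± 0.919 in IPF and 2.59 ± 0.592 in sham lungs (SD, n = 5 each), with 3 of 5 IPF lungs above all sham lungs.

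The genes also varied with each other inside the groups. Over the 10 samples and after removal of the group means, the highest Pearson r among the 45 pairs were those of Ppp3cc with Rcan2 (0.79), Ppp3ca with Ppp3cc (0.71) and Ppp3ca with Nfatc3 (0.67), and the lowest those of Ppp3ca with Nfatc2 (-0.72) and Nfatc2 with Rcan2 (-0.71). The genes whose deviations were most like those of Rcan1 among 13445 genes with a mean of at least 1 FPKM were Actg1 (0.96), Ppp1r3c (0.94) and Cthrc1 (0.94). For Ppp3cc they were Trim23 (0.96), Fam20b (0.95) and Mpp7 (0.93). These values, picked as the highest of many over 10 samples, are a description.

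Beyond the 10 genes, 89 others of the pathway on 8 lists were followed, and 78 of them could be tested. An adjusted p under 0.05 (limma) was reached by 4, 2 higher and 2 lower, where 5.85% of all genes did. The lists of calcineurin-binding regulators, immunophilins, calcium entry, NFAT kinases and other calcineurin substrates had 0 calls among 44 genes tested, and 0 by limma voom. In them 8 of 44 genes had an unadjusted p under 0.05, beside 19.5% of all genes, and the largest absolute log2 fold change was 0.30. For 39 of the 44 it was below 0.2, which held for 55.6% of all genes. All genes include those of low level, so this is not a share at matched levels. The median absolute log2 fold change was 0.17 over all genes and 0.13 over genes with a mean of at least 1 FPKM.
The list medians were -0.02 for 9 relatives and binding regulators, 0.03 for 7 immunophilins, 0.08 for 8 genes of calmodulin and store-operated calcium entry, -0.07 for 11 NFAT kinases and -0.05 for 9 other substrates. Ppia, which encodes cyclophilin A, the partner of cyclosporin A, was at 79.0 to 120.0 FPKM in IPF and 71.6 to 143.0 FPKM in sham lungs. Sham replicate 1 was the low value, and the other sham lungs, at 123.0 to 143.0 FPKM, were above all IPF lungs. With all lungs the groups differed by -0.27 on the log2 scale (adjusted p 0.486 in limma). Fkbp1a, the partner of the related drug tacrolimus, was at 128.0 ± 6.73 and 127.0 ± 14.9 FPKM in IPF and sham lungs (SD, n = 5 each), with 0.01 as the log2 difference. Rcan3 differed by -0.02 on the log2 scale (adjusted p 0.931 in limma), and Nfat5, the family member that responds to osmotic stress and not to calcineurin, 0.09 (0.687).

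**Figure D5:**
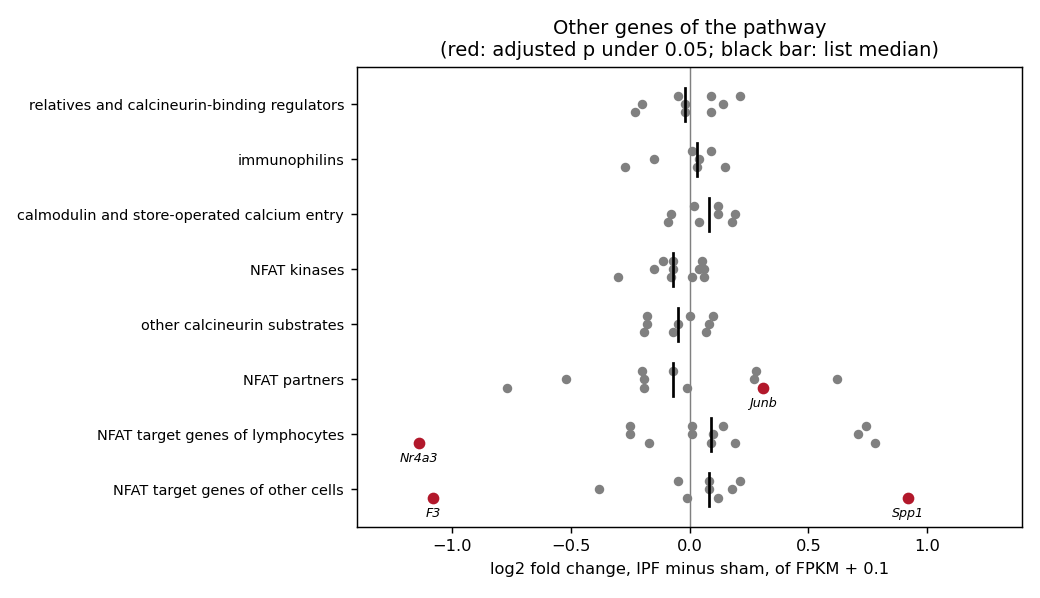
Log2 fold change of FPKM + 0.1, IPF minus sham (x axis), of the 78 tested genes on 8 lists (y axis), with the list median as a black bar. The 4 genes in red have an adjusted p under 0.05, and the first 5 lists stay within 0.30 of 0.

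The calls were among NFAT partners and target genes. Of 11 partners, which include the AP-1 subunits, Gata4 and Foxp3, Junb rose by 0.31 in log2 units (adjusted p 0.0479 in limma), and the list median was -0.07. It was at 15.7 ± 1.45 FPKM in sham and 19.5 ± 1.79 FPKM in IPF lungs (SD, n = 5 each), and its adjusted p exceeded 0.05 in 7 of 10 fits with a lung removed. By value 4 of the 11 partners were higher and 7 lower. Larger changes than that of Junb were those of Fosb (-0.77), Batf (0.62) and Fos (-0.52), with adjusted p of 0.156, 0.0651 and 0.235 in limma. Of 19 target genes known from lymphocytes, 13 could be tested, with a median of 0.09. Nr4a3, an early-response nuclear receptor, was the 1 call: it fell by 1.14 (limma adjusted p = 0.00940), from 2.37 ± 0.481 to 1.04 ± 0.344 FPKM (SD, n = 5 each). The other 6 genes were too low to test. They are Il2, Il3, Il5, Il13, Il21 and Ifng, named for being too low, and none had more than 5 reads in any lung, so a difference in these cytokines, was not detectable at this depth.
Of 13 target genes known from other cells, 10 could be tested, with a median of 0.08. F3, which encodes tissue factor, fell by 1.08 (limma adjusted p = 0.000347), from 25.8 ± 2.02 FPKM in sham to 12.3 ± 2.09 FPKM in IPF lungs (SD, n = 5 each). Spp1, which encodes osteopontin and is known as an NFAT target of arterial smooth muscle, rose by 0.92 (limma adjusted p = 0.00943). F3, Spp1 and Nr4a3 kept an adjusted p under 0.05 in all 10 fits with a lung removed. All these target genes have other regulators as well.

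Lists of marker genes were followed to describe the makeup of the lungs. Of all genes tested, 3.71% were called higher and 4.52% did not overlap and were higher in IPF. Summed levels were higher in all 5 IPF lungs than in all sham lungs for 13 T cell genes (33.2 to 41.8 against 21.5 to 31.5 FPKM, 3 of 13 genes higher with a limma adjusted p under 0.05), 8 B cell genes (35.5 to 53.6 against 19.5 to 31.7 FPKM, 6 of 8 genes by the same test) and 8 NK cell genes (15.8 to 24.6 against 6.76 to 13.2 FPKM, 4 of 8 genes). The sum of 9 endothelial genes was also higher in all 5 IPF lungs (1191 to 1358 against 1066 to 1100 FPKM), and 1 of the 9 genes passed the test, Cldn5. Without Cldn5 the sum of the other 8 overlapped, at 759 to 911 FPKM in IPF and 744 to 828 FPKM in sham lungs. Sums overlapped for 9 genes of macrophages and monocytes, where Chil3 made up most of the sum, and 3 of the 9 passed the test as higher. These were Ly6c2, Ccr2 and Cx3cr1, with log2 fold changes of 1.01, 0.66 and 0.97 and all 5 IPF lungs above all sham lungs. For 8 neutrophil genes the median log2 fold change was 1.00, with 8 of 8 higher by value and 0 calls, and their sums overlapped at 53.7 to 302 FPKM in IPF and 15.4 to 76.1 FPKM in sham lungs. Sums also overlapped for 8 genes of smooth muscle (1 lower), 7 of ciliated airway cells (0 calls) and 10 of striated muscle (0 calls among 8 tested), and for the alveolar lists (0 calls). IPF replicate 4 and sham replicate 3 stood apart in striated muscle genes, with sums of 101 and 83.4 FPKM that include Myh6 and Myl7 of heart muscle, where the other 8 lungs had 2.29 to 5.64 FPKM.
Of 110 pairs of a gene and a cell type list, 10 had a Pearson r of at least 0.7 in size within the groups, over 10 samples, and all 10 are given here beside some values for T cell genes. The r of Nfatc2 was 0.34 with the mean of the T cell genes, 0.82 with smooth muscle and 0.81 with ciliated airway genes. IPF replicate 3, the lung with the most Nfatc2, stood apart in both lists, with a summed level of 257 FPKM for smooth muscle, where the other IPF lungs had 134 to 168 FPKM, and of 287 FPKM for ciliated airway genes, where they had 164 to 215 FPKM. Without it the r of Nfatc2 was 0.64 and 0.66. Rcan2 was at -0.77 with smooth muscle and -0.80 with ciliated airway genes, or -0.67 and -0.80 without IPF replicate 3, which had the lowest Rcan2. Nfatc4 was at -0.72 with T cell, -0.76 with NK cell and -0.72 with neutrophil genes. Nfatc1 was at -0.60 with the T cell and -0.81 with the B cell genes. Ppp3cc was at 0.27 with the T cell and 0.75 with the neutrophil genes, and Ppp3r1 at 0.77 with the latter, or 0.72 and 0.61 with the neutrophil genes without IPF replicate 5. The part of cell makeup in these values was not tested.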

How the data were processed

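mRNA of whole lungs of 5 IPF and 5 sham mice was analysed. Fastp, HISAT2 and StringTie were used by the authors for trimming, alignment and quantification, and they deposited 1 FPKM value per gene and sample. Gene positions in the table are those of GRCm38, which the submitters' processing notes also list, although the methods name another build. The use of strand in counting and the tool versions are not given in the sources used here. Reads per gene were recovered from FPKM times the deposited gene length, whose values in a sample are multiples of what a read is worth (100.0% of the values checked, tolerance 0.1 read).

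Genes with a mean of at least 0.1 FPKM entered a linear model of log2(FPKM + 0.1), IPF against sham with no covariate, fitted by limma 3.58.1 (trended empirical Bayes, R 4.3.3). The Benjamini-Hochberg adjustment ran over all genes tested. The scale understates the change of low genes. Exact permutation tests covered all 252 assignments of 5 of 10 samples, two-sided, and their p-values were not adjusted over genes. The test and the read recovery were tested on simulated data. Pairs of lungs of the same group differed by more than sampling noise (chi-square per degree of freedom 4.78 to 37.3). The alternatives were other pseudocounts, filters and scalings, the replicate block, no variance trend, limma voom on the recovered reads, protein-coding genes alone and leaving out each lung.

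The 10 genes, the pathway lists and the cell type lists were chosen with earlier results of these data known. All 10 genes are named, together with Ppia, Fkbp1a, Rcan3, Nfat5, up to 4 called genes per pathway list, and the 3 genes most like Rcan1 and most like the gene with the smallest adjusted p. NFAT partners with changes larger than that of Junb are named too. Other steps used pandas 2.3.3 and numpy 2.4.6 (Python 3.11.15).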

Additional observations from a re-analysis of the deposited data

Results flagged for a closer look

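In 36 groups of 5 values (the 10 genes and 8 others of the pathway, in IPF and in sham), 3 samples lay farther from the rest of their group than Dixon's 95% limit allows, and chance flags about 1 in 20 groups. Rcan1 in IPF replicate 5 was at 18.2 FPKM, the lowest of its group, where the other IPF lungs were at 23.7 to 25.3 FPKM. Nfatc4 in IPF replicate 2 was at 5.67 FPKM, the highest of its group, with the others at 5.03 to 5.22 FPKM. Ppia in sham replicate 1 was at 71.6 FPKM, the lowest of its group, with the others at 123.0 to 143.0 FPKM.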

How the results depend on the processing

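The direction of all 10 genes held in every alternative run, and of 209 refits of single genes 192 kept their side of the 0.05 limit, 10 lost it (all Ppp3cc) and 7 gained it (5 Rcan1, 2 Ppp3r1). The count of 1 gene under 0.05 (limma) became 0 without the filter on low values and without the variance trend, and 2 when genes had to average 1 FPKM, with protein-coding genes alone (Ppp3cc and Rcan1 in both) and with quantile normalization (Ppp3cc and Ppp3r1). It lay between 0 and 2 when each lung was left out. Over all genes the count of 1196 lay between 775 and 1620 in those fits, the lowest without IPF replicate 4 and the highest without IPF replicate 5. Without IPF replicates 3 and 5 and sham replicate 1, an alternative chosen after seeing the data, 2 of the 10 genes were under 0.05, Rcan1 (0.0112) and Ppp3r1 (0.0395), and Ppp3cc was at 0.0854. Nfatc2 could not be tested at a mean of at least 1 FPKM.

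No label says that lungs with the same replicate number belong together, and their deviations correlated by -0.04 to 0.17 across genes, so they were not treated as pairs. Still, 6 of 10 samples correlated best with their own number in the other group, where chance gives 2, a hint from the data and not the design. With the replicate block, 1045 genes and 1 of the 10, Ppp3cc (limma adjusted p = 0.0335), were under 0.05.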
